A study of Mus musculus with 14 samples.

Results

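The expression of 10 genes for the oocyte linker histone and for histone chaperones was followed in all 14 RNA-seq libraries of mouse oocytes that had been made to overexpress Rnaseh1, Rnaseh1 together with Supt6, or the fluorescent protein mCherry. The genes were taken by symbol: H1f8 (also written H1foo), Npm2, Npm3, Nap1l1, Nap1l4, Set, Asf1a, Asf1b, Hira and Chaf1a. They are 10 of 35389 gene rows in a table of 8 libraries and 10 of 35341 symbols in a separate table of 6 libraries, called the rescue set here. All 10 were among the 12736 and 12859 genes kept by the filter on low values, which asked for 2 or more libraries with 1 TPM or more.

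Every group held 2 libraries, and the labels give no strain, age or donor for any of them. The 8 libraries were SN oocytes with Rnaseh1, SN oocytes with mCherry, NSN oocytes with Rnaseh1 and NSN oocytes with mCherry. NSN and SN stand for a nucleolus that is not surrounded, or is surrounded, by a ring of condensed chromatin, the earlier and the later state of the fully grown oocyte. The 6 rescue libraries were Rnaseh1 plus Supt6, Rnaseh1 alone and mCherry, with no nucleolar state in their labels. RNase H1 cuts the RNA strand of RNA:DNA hybrids, and Supt6 encodes the elongation factor SPT6, itself a histone chaperone. The labels name no separate animals, pools or preparations behind the libraries of a group, so p-values measure the spread between these libraries, which may be technical.

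Nucleosomes are built by chaperones that carry histones to DNA and hold free histones in store. ASF1 proteins receive H3-H4 dimers and pass them to HIRA, which works without DNA replication, or to CAF-1, whose large subunit is the product of Chaf1a and which works at replication forks. Nucleoplasmins, NAP1-like proteins and SET bind mainly H2A-H2B or several histones, and a linker histone then binds the DNA that enters and leaves the nucleosome. An oocyte makes its own linker histone, H1f8, and its own nucleoplasmin, Npm2, and keeps stores of both for the egg and the early embryo.

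Levels are given as TPM, each transcript's share of all transcripts scaled to a fixed total, as deposited. TPM is scaled by transcript length, so levels of different genes can be set side by side within a table, and it keeps no read depth. Between 10036 and 11811 genes per library reached a TPM of 1 in the SN and NSN table, and 10892 to 12230 in the rescue set. Oocyte markers summed to between 18800 and 27200 TPM per library with 0 of 12 at 0, against 35.5 to 87.0 TPM for 14 granulosa and cumulus cell markers. Most of the granulosa and cumulus sum came from Cyp19a1 and Cdh2 in every library, while Amh, Amhr2, Foxl2 and Ptx3 of that list were at 0 in every library. Rnaseh1 was higher in each Rnaseh1 library than in each mCherry library of its table and nucleolar state: 1361 and 1083 against 81.0 and 131 TPM in SN oocytes, 745 and 229 against 137 and 108 TPM in NSN oocytes. In the rescue set it stood at 2270 and 2017 TPM with Rnaseh1 plus Supt6 and 1243 and 625 TPM with Rnaseh1, against 125 and 114 TPM with mCherry. Supt6 was at 28.16 and 20.97 TPM with Rnaseh1 plus Supt6, 3.01 and 2.55 TPM with Rnaseh1, and 3.28 and 3.14 TPM with mCherry. The second NSN Rnaseh1 library and the second SN mCherry library stood apart from their partners: the standard deviation over 12736 genes of the difference between replicates was 1.28 and 1.05 on the log2 scale in these 2 groups, and 0.352 to 0.689 in the other 5 groups.

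The 10 genes covered almost the whole range of abundance in the oocyte. H1f8 and Asf1a led in the SN and NSN table, where H1f8 ranged from 1345 to 9827 TPM and Asf1a from 1199 to 5511 TPM. H1f8 was at or above the 99.0th percentile of the genes tested in every library of both tables. Npm2 came next with 352 to 2146 TPM, followed by Asf1b (38.05 to 392 TPM), Nap1l1 (73.4 to 146 TPM) and Nap1l4 (6.93 to 203 TPM), whose ranges overlapped each other. Set (7.40 to 33.9 TPM), Chaf1a (0.48 to 49.9 TPM) and Npm3 (2.25 to 12.03 TPM) were low, and Hira was lowest with 0.28 to 5.70 TPM. In the rescue set Asf1a stood at 155 to 1199 TPM, below its lowest SN or NSN library in all libraries but 1, although the tables were made separately and no test was run between them. H1f8 alone supplied 81.6% and 81.8% of the summed TPM of the 10 genes in the Rnaseh1 plus Supt6 libraries, 52.2% and 52.8% in the rescue Rnaseh1 libraries, and 74.2% and 74.7% in the rescue mCherry libraries. In the other table this share was 31.1% and 28.4% in SN Rnaseh1 and 35.7% and 70.6% in SN mCherry libraries, and 55.3% and 18.2% in NSN Rnaseh1 and 55.5% and 45.8% in NSN mCherry libraries, so replicates could differ widely there.

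**Figure D1:**
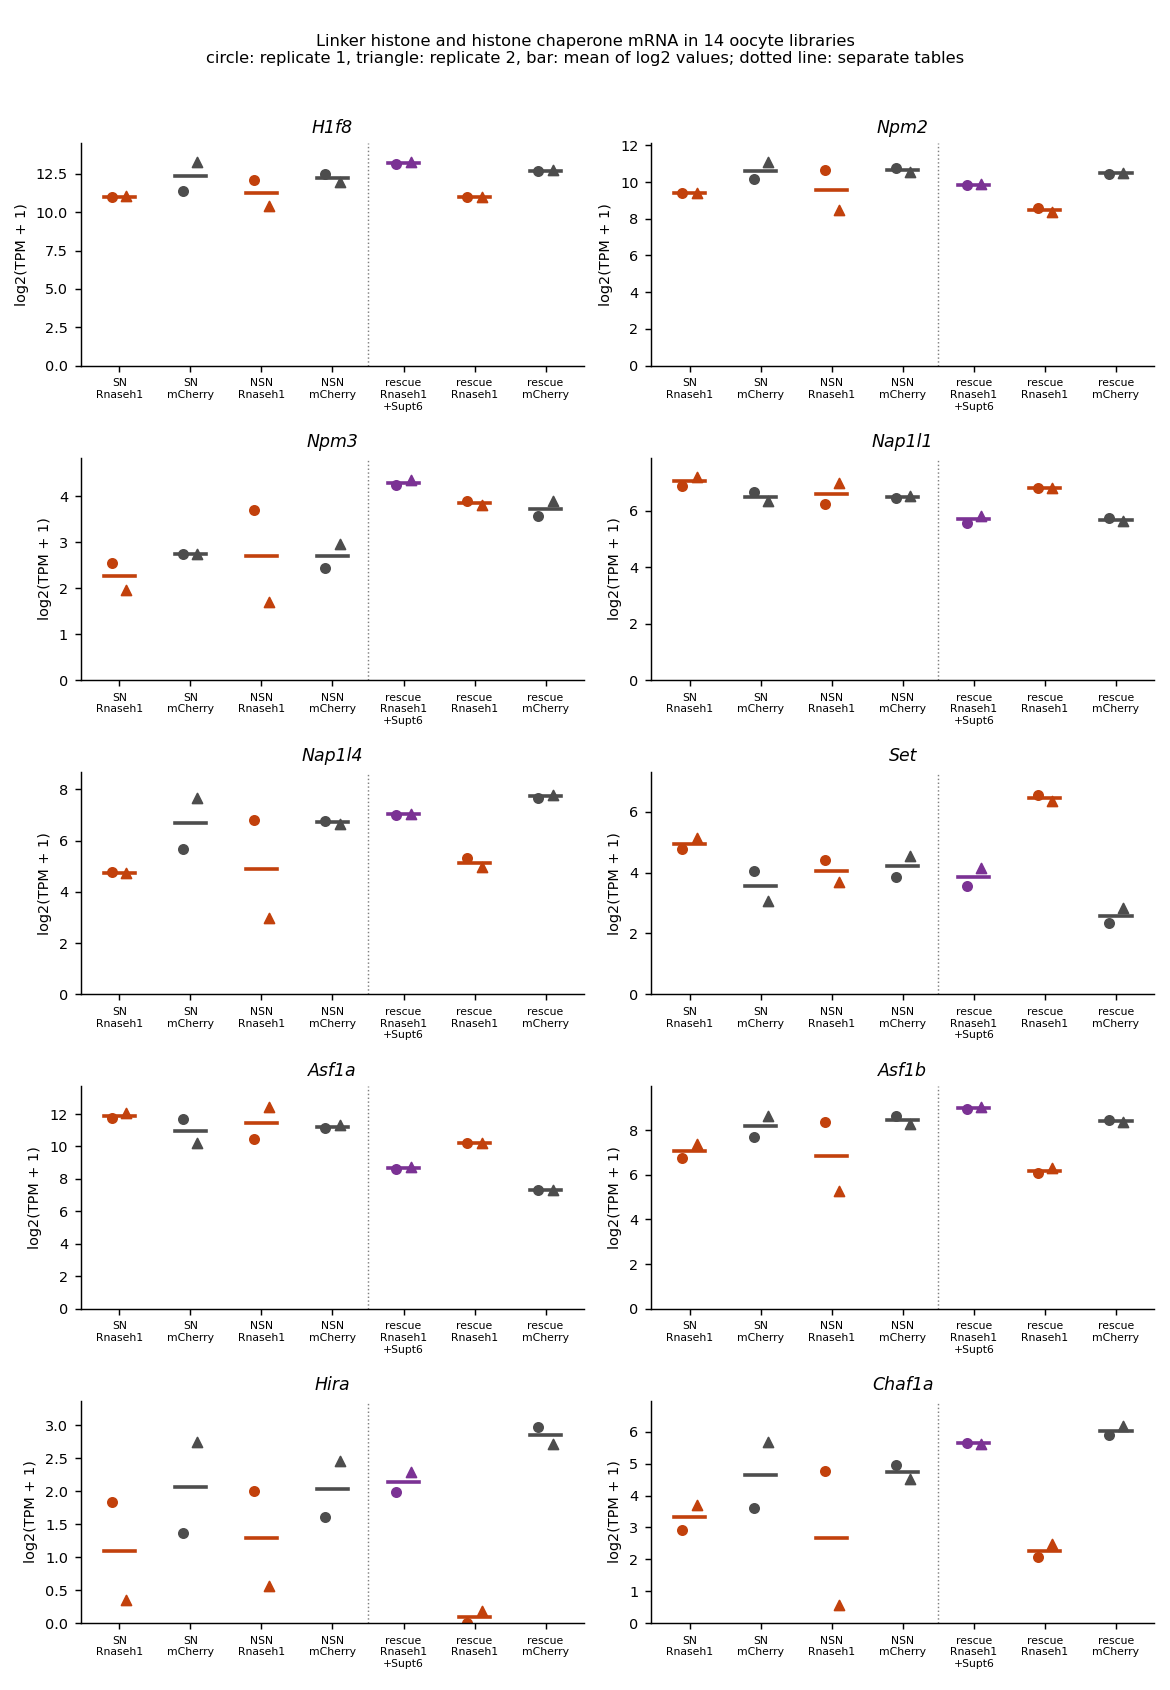
Level of each of the 10 genes in every library, as log2(TPM + 1) on an axis that starts at 0. Circles are replicate 1, triangles replicate 2 and bars the mean of both, with SN and NSN groups to the left of the dotted line and rescue groups to the right. In the rescue set H1f8 lay at 9064 and 9748 TPM with Rnaseh1 plus Supt6, 2072 and 2057 TPM with Rnaseh1, and 6442 and 6749 TPM with mCherry.

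In the rescue set, Rnaseh1 against mCherry, 6 of the 10 genes fell (H1f8, Npm2, Nap1l4, Asf1b, Hira and Chaf1a) and 3 rose (Set, Asf1a and Nap1l1), while Npm3 did not pass the test. The paralogues went apart: Asf1a rose and Asf1b fell, and Nap1l1 rose and Nap1l4 fell. A gene is said to have risen or fallen where limma's Benjamini-Hochberg adjusted p, over all genes tested, was under 0.05. Such calls were common: 66.5% of the 12859 genes passed, 20.3% higher and 46.2% lower, so 9 called members is not a result about these genes as a group. The libraries of the groups did not overlap for 9 of the 10 genes, against 81.1% of all genes. All fold changes were taken between log2(TPM + 1) values, where the added 1 shrinks the change of weakly expressed genes. Their median was -1.83 for the 10 genes and -0.52 for all genes tested. Since TPM only gives shares of the RNA in a library, less RNA of a gene per oocyte, more RNA of other genes and a different mix of oocytes cannot be told apart.

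Values also moved with the base composition of the transcripts. Across genes, the log2 fold change of rescue Rnaseh1 over mCherry ran with transcript GC content at a Spearman correlation of -0.50, a description over genes that share libraries. When genes were ranked by GC content, the median was 0.43 in the bottom 10% and -1.59 in the top 10%. Nap1l1 and Asf1a have 39.8% and 38.6% GC and Set has 46.3%, whereas the other 7 genes, up to 54.2% in H1f8, lie above the median of 48.5% of the genes tested. For the 10 genes, fold changes of rescue Rnaseh1 over mCherry are given with their value after a spline on GC content was removed. After that correction all 10 genes passed, against 56.3% of all genes. Markers of other cells were low, but their sums moved too. The 6 blood, vessel and stroma markers summed to 31.9 to 33.4 TPM with Rnaseh1 plus Supt6, 6.10 to 9.26 TPM with Rnaseh1 and 32.9 to 36.2 TPM with mCherry. Most of this was Pecam1, at 29.4 and 31.35 TPM, 5.52 and 9.26 TPM, and 29.97 and 31.77 TPM in that order. Cd68 was low and also lowest with Rnaseh1, at 2.47 and 1.9 TPM, 0.1 and 0.0 TPM, and 2.84 and 4.21 TPM. Ptprc, Col1a1 and Pdgfra did not exceed 0.48 TPM in the rescue set, and Hbb-bs was at 0 in every library. The 14 granulosa and cumulus markers summed to 70.9 to 74.0, 60.0 to 65.6 and 69.8 to 73.3 TPM in the same 3 groups. The part of these cells in the results was not tested.

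H1f8 (ENSMUSG00000042279.13, chromosome 6, 115944938 to 115950236, plus strand, GRCm38) encodes the linker histone of the oocyte. It had 2072 and 2057 TPM in the rescue Rnaseh1 libraries (2065 ± 10.7, SD, n = 2), against 6442 and 6749 TPM in the mCherry libraries (6595 ± 218, SD, n = 2). The groups lay well apart, with a narrow spread within each. H1f8 fell by 1.67 on the log2 scale (SE 0.06, limma's adjusted p = 1.43e-06), which is -1.15 relative to the median of all genes. The GC correction took this to -0.32 (adjusted p = 0.00426), so the call was kept at a much smaller size.

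Npm2 (ENSMUSG00000047911.6, chromosome 14, 70647302 to 70659244, minus strand) encodes the egg nucleoplasmin, known for storing histones and, in frogs, for opening sperm chromatin. It had 384.5 and 325 TPM in the rescue Rnaseh1 libraries, against 1396 and 1427 TPM with mCherry. Both Rnaseh1 libraries lay far below both mCherry libraries, and Npm2 fell by 1.99 (SE 0.09, limma's adjusted p = 2.85e-06), or -0.89 after the GC correction (adjusted p = 0.000116). Its relative Npm3 (ENSMUSG00000056209.7, chromosome 19, 45747734 to 45749591, minus strand), which is expressed in many tissues and binds nucleolar NPM1, had 13.9 and 13.1 TPM with Rnaseh1 against 10.8 and 13.99 TPM with mCherry. These libraries overlapped, at 0.12 (SE 0.18, limma's adjusted p = 0.574). Npm3 is the member whose call turned on the scaling: it stood at 0.71 after median centring, 0.87 after quantile normalization and 1.29 after the GC correction (adjusted p = 0.000563 for the last), each past the threshold. An antisense gene, Gm15491 (45749508 to 45752310), overlaps the start of Npm3 and reached 25.1 TPM in the rescue set. Whether the counting used strand is not stated, so reads from the short shared stretch cannot be assigned to either gene.

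Nap1l1 (ENSMUSG00000058799.16, chromosome 10, 111473223 to 111498150, plus strand) and Nap1l4 (ENSMUSG00000059119.9, chromosome 7, 143513579 to 143549106, minus strand) encode relatives of nucleosome assembly protein 1, which shuttle H2A-H2B. Nap1l1 had 111.5 and 109 TPM in the rescue Rnaseh1 libraries, against 51.8 and 48.4 TPM with mCherry. It rose by 1.12 (SE 0.12, limma's adjusted p = 0.000172), and 0.75 after the GC correction. Nap1l4 had 38.6 and 30.3 TPM with Rnaseh1, against 201 and 219.9 TPM with mCherry. It fell by 2.59 (SE 0.13, limma's adjusted p = 4.38e-06), or -1.88 after the GC correction. In neither gene did the libraries of the groups overlap. The ratio of Nap1l4 to Nap1l1 was 0.35 and 0.28 with Rnaseh1 and 3.88 and 4.55 with mCherry.

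Set (ENSMUSG00000054766.13, chromosome 2, 30057378 to 30072577, plus strand) encodes a histone-binding protein that also inhibits the phosphatase PP2A. Of the 10 genes it had the largest fold change: 92.7 and 81.5 TPM with Rnaseh1, against 4.04 and 6.12 TPM with mCherry in the rescue set. Set rose by 3.88 (SE 0.26, limma's adjusted p = 1.35e-05), and by 4.06 after the GC correction. In the GENCODE M21 annotation 11 pseudogenes match the Set transcript at 90% identity or more over at least 500 bases, the closest being Gm9531, identical over 668 bases. None of the 11 had a row under its identifier or symbol in the tables used, so how reads were shared between Set and these copies is not known, and the values of Set are uncertain to that extent. Nap1l1 has 2 such copies and Npm3 has 1, while H1f8, Npm2, Nap1l4, Asf1a, Asf1b and Chaf1a have 0. Hira has 1, the readthrough gene Gm28539 on the same strand.

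Asf1a (ENSMUSG00000019857.7, chromosome 10, 53596757 to 53609225, plus strand) and Asf1b (ENSMUSG00000005470.8, chromosome 8, 83955507 to 83970197, plus strand) encode the pair of ASF1 proteins that hold H3-H4. Asf1a had 1189 and 1199 TPM with Rnaseh1 in the rescue set, against 157 and 155 TPM with mCherry. It rose by 2.93 (SE 0.08, limma's adjusted p = 6.89e-07), and by 2.47 after the GC correction. Asf1b had 66.2 and 77.1 TPM with Rnaseh1, against 355 and 333 TPM with mCherry. It fell by 2.25 (SE 0.10, limma's adjusted p = 2.59e-06), and the corrected value was -1.23 (adjusted p = 0.000103). The ratio of Asf1a to Asf1b, in TPM without the GC correction, was 17.97 and 15.55 with Rnaseh1 and 0.44 and 0.47 with mCherry. By that measure the more abundant ASF1 mRNA was Asf1a in each rescue Rnaseh1 library and Asf1b in each rescue mCherry library. In the other table Asf1a was the more abundant with mCherry too, at ratios of 15.95 and 3.06 in SN and 5.62 and 8.46 in NSN oocytes. The antisense-lying Mcm9 overlaps Asf1a but did not exceed 29.9 TPM.

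Hira (ENSMUSG00000022702.16, chromosome 16, 18877037 to 18970309, plus strand) encodes the chaperone that places the variant H3.3 outside replication. It was listed at 0 and 0.14 TPM in the rescue Rnaseh1 libraries, against 6.85 and 5.58 TPM with mCherry. Hira fell by 2.75 (SE 0.26, limma's adjusted p = 7.37e-05), or -1.44 after the GC correction (adjusted p = 0.00286). Chaf1a (ENSMUSG00000002835.9, chromosome 17, 56040439 to 56072289, plus strand), for the large CAF-1 subunit, had 3.17 and 4.55 TPM with Rnaseh1, against 58.6 and 71.6 TPM with mCherry. Its fall was the deepest of the 10, at -3.77 (SE 0.19, limma's adjusted p = 3.94e-06), and -2.62 after the GC correction. Chaf1a overlaps Ubxn6 on the other strand, which reached 53.2 TPM.

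**Figure D2:**
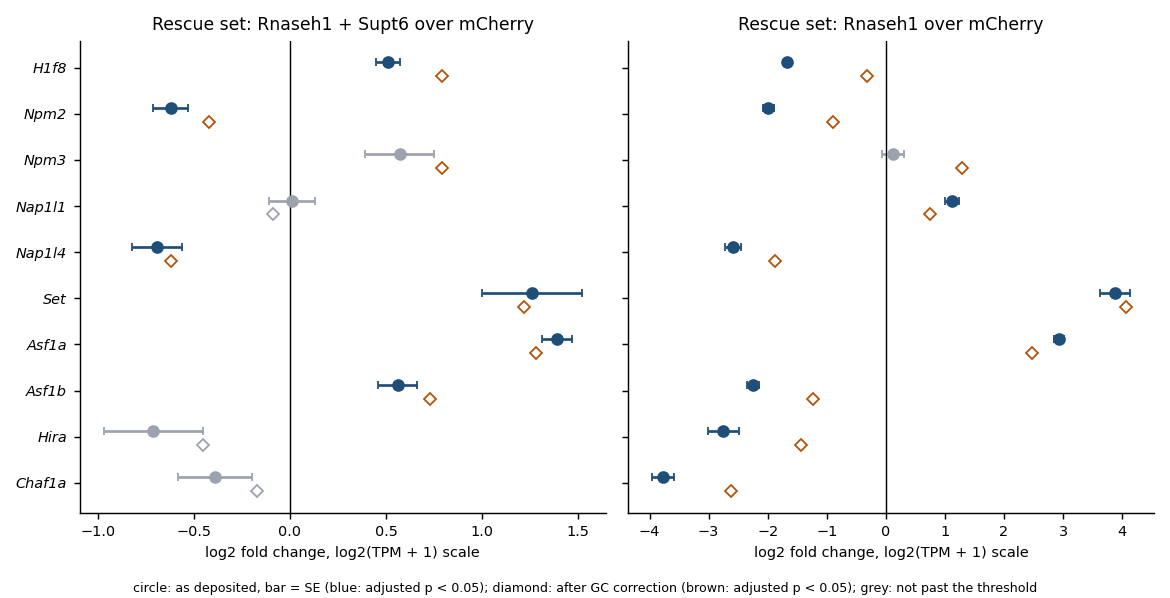
Log2 fold changes of the 10 genes in the rescue set, for Rnaseh1 plus Supt6 over mCherry on the left and Rnaseh1 over mCherry on the right, each panel on its own horizontal scale. Circles with SE bars are the values as deposited, diamonds the values after the GC correction, and grey marks did not pass the threshold. Set stood at 1.26 on the left and 3.88 on the right, and H1f8 at 0.51 and -1.67.

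Rnaseh1 plus Supt6 was set against mCherry and against Rnaseh1 alone with the same 6 libraries, so these comparisons and the preceding one share groups and their values are given side by side, with no measure of their likeness. Against mCherry, 4 genes rose with Rnaseh1 plus Supt6 (H1f8, Set, Asf1a and Asf1b), 2 fell (Npm2 and Nap1l4) and 4 did not pass (Npm3, Nap1l1, Hira and Chaf1a). Among all genes 13.3% passed, 5.71% higher and 7.60% lower, so the 6 of 10 called stood above the share of all genes, with no test of that difference. The median log2 fold change was 0.26 for the 10 genes and -0.04 for all. Against Rnaseh1 alone, 6 rose (H1f8, Npm2, Nap1l4, Asf1b, Hira and Chaf1a), 3 fell (Nap1l1, Set and Asf1a) and Npm3 did not pass, where 58.9% of all genes passed, 41.6% higher and 17.4% lower. The medians there were 1.63 for the 10 genes and 0.44 for all genes tested. Rnaseh1 itself rose by 1.28 in that comparison (SE 0.28, limma's adjusted p = 0.00622), so its groups differed in Rnaseh1 as well as in Supt6. The groups did not overlap for 9 of the 10 genes against mCherry, where 61.3% of all genes did not, and for 10 of 10 against Rnaseh1 alone, where 80% did not.

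The oocyte genes H1f8 and Npm2 parted here. H1f8 reached 9064 and 9748 TPM with Rnaseh1 plus Supt6, above both mCherry libraries. It rose by 0.51 against mCherry (SE 0.06, limma's adjusted p = 0.0056) and by 2.19 against Rnaseh1 alone (SE 0.06, adjusted p = 1.33e-06), with 0.79 and 1.11 after the GC correction. Npm2 had 905 and 936 TPM with Rnaseh1 plus Supt6, between the Rnaseh1 and the mCherry libraries. Npm2 fell by 0.62 against mCherry (SE 0.09, limma's adjusted p = 0.00951) and rose by 1.38 against Rnaseh1 alone (SE 0.09, adjusted p = 2.01e-05), which the GC correction took to 0.47. The ratio of H1f8 to Npm2 was 10.02 and 10.41 with Rnaseh1 plus Supt6, 5.39 and 6.33 with Rnaseh1, and 4.62 and 4.73 with mCherry. Npm3 had 18.1 and 19.4 TPM with Rnaseh1 plus Supt6, its highest values in any library, but neither 0.57 against mCherry (limma's adjusted p = 0.0886) nor 0.45 against Rnaseh1 (adjusted p = 0.0697) passed. After the GC correction both passed, at 0.79 (adjusted p = 0.0302) and, with the sign turned, -0.51 (adjusted p = 0.0395).

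Of the NAP1-like pair, Nap1l1 had 45.9 and 55.5 TPM with Rnaseh1 plus Supt6, values that spanned those of mCherry. Its difference from mCherry was 0.01 (SE 0.12, limma's adjusted p = 0.97), and it fell by 1.11 against Rnaseh1 alone (SE 0.12, adjusted p = 0.000235). Nap1l4 had 128 and 132 TPM, between the other groups. It fell by 0.69 against mCherry (SE 0.13, limma's adjusted p = 0.0192) and rose by 1.89 against Rnaseh1 alone (SE 0.13, adjusted p = 2.57e-05), or 1.26 after the GC correction. Set had 10.7 and 16.6 TPM with Rnaseh1 plus Supt6, also between the other groups. Set rose by 1.26 against mCherry (SE 0.26, limma's adjusted p = 0.0231) and fell by 2.62 against Rnaseh1 alone (SE 0.26, adjusted p = 0.000126).

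Asf1a had 390 and 432 TPM with Rnaseh1 plus Supt6, above mCherry and below Rnaseh1. It rose by 1.39 against mCherry (SE 0.08, limma's adjusted p = 0.00096) and fell by 1.54 against Rnaseh1 alone (SE 0.08, adjusted p = 6.58e-06). Asf1b reached 492 and 525 TPM, above every library of the other 2 groups. It rose by 0.56 against mCherry (SE 0.10, limma's adjusted p = 0.0161) and by 2.81 against Rnaseh1 alone (SE 0.10, adjusted p = 2.24e-06). The ratio of Asf1a to Asf1b was 0.79 and 0.82, between those of Rnaseh1 and mCherry. Hira had 2.96 and 3.87 TPM with Rnaseh1 plus Supt6, -0.71 from mCherry (SE 0.26, limma's adjusted p = 0.12), and rose by 2.04 against Rnaseh1 alone (SE 0.26, adjusted p = 0.000442), or 1.0 after the GC correction (adjusted p = 0.0168). Chaf1a had 49.8 and 48.7 TPM, a difference of -0.39 from mCherry (SE 0.19, limma's adjusted p = 0.23), and rose by 3.38 against Rnaseh1 alone (SE 0.19, adjusted p = 9.25e-06). Neither p shows that Hira or Chaf1a was equal to mCherry, since both libraries of each lay below both mCherry libraries.

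The calls of Rnaseh1 plus Supt6 over mCherry depended on having both replicates. With 1 library left out, 2 genes passed without the first Rnaseh1 plus Supt6 library, 1 without the second, 2 without the first mCherry library and 2 without the second, where 1.15%, 0.67%, 2.55% and 1.60% of all genes passed. Asf1a passed in all 4 of these fits, at 1.31 to 1.46, and H1f8 in all but the fit without the second Rnaseh1 plus Supt6 library (0.46). Npm2, Nap1l4, Set and Asf1b lost the call in each of the 4, with fold changes of -0.64 to -0.59, -0.76 to -0.63, 0.96 to 1.56 and 0.51 to 0.61 in that order. With no filter on low values the calls of Nap1l4 and Set were lost as well.

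**Figure D3:**
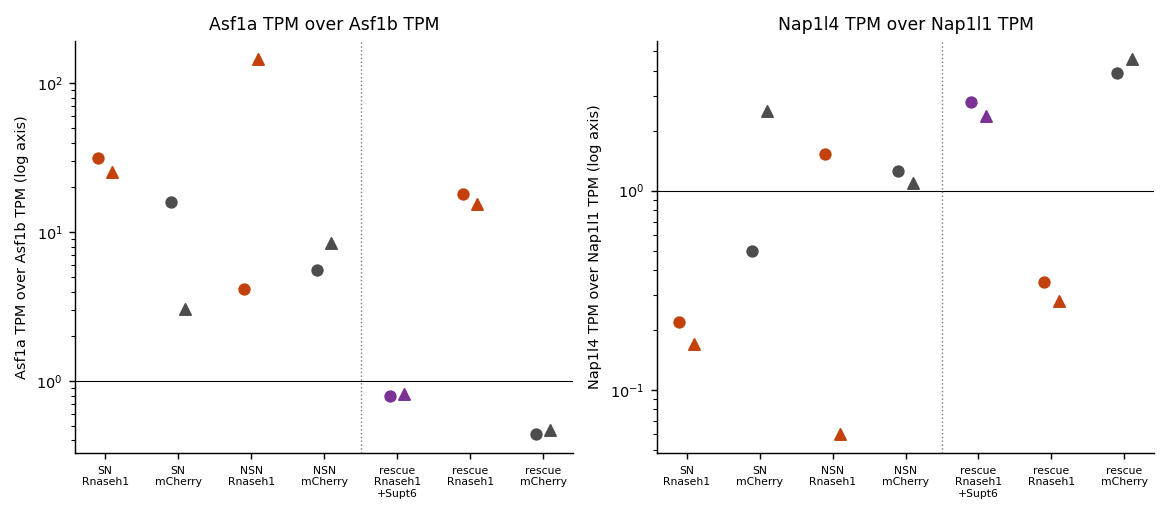
Ratio of TPM between paralogues in every library on log axes, Asf1a over Asf1b on the left and Nap1l4 over Nap1l1 on the right. Circles are replicate 1, triangles replicate 2, the horizontal line marks equal levels and the dotted line parts the separate tables. Asf1a over Asf1b was 31.8 and 25.6 with Rnaseh1 and 16.0 and 3.06 with mCherry in SN oocytes, 4.17 and 144.8 with Rnaseh1 and 5.62 and 8.46 with mCherry in NSN oocytes, where the groups overlapped, and 17.97 and 15.55 with Rnaseh1 and 0.44 and 0.47 with mCherry in the rescue set.

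The sequences before the RefSeq start sites of H1f8, Asf1a and Asf1b are shown because the ASF1 paralogues moved in opposite directions and H1f8 is the linker histone made by oocytes. RefSeq promoter windows of 300 bases, from 250 before to 50 after the start (GRCm38.p6), were matched for 8 of the 10 genes, all but Npm2 and Nap1l4. GENCODE places the starts of Asf1a (53596757) and Asf1b (83955507) inside the printed stretches, so part of each stretch lies within the gene in that annotation. The 250 bases before the RefSeq start are printed 5′ to 3′, with the capitals marking CCAAT boxes (CCAAT) and E-boxes (CANNTG) on either strand, so that ATTGG is a CCAAT box on the other strand.
H1f8, chr6:115944681-115944930, plus strand: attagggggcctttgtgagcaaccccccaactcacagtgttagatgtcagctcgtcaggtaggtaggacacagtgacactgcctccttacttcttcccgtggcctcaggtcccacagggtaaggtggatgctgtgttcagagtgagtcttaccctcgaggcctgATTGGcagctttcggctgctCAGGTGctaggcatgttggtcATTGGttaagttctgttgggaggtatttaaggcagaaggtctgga
Asf1a, chr10:53596711-53596960, plus strand: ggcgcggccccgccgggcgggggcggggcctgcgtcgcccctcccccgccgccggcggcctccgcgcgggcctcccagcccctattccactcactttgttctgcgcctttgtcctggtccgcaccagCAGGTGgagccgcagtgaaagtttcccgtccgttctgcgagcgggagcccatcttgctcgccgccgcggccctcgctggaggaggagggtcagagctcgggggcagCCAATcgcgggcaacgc
Asf1b, chr8:83955444-83955693, plus strand: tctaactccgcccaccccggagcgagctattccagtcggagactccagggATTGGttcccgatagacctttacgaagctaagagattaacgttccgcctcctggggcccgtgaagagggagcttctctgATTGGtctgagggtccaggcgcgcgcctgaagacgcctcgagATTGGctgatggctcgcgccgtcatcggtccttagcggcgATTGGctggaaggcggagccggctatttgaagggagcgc
The windows differed in CpG content and in these motifs. H1f8 held 5 CpG dinucleotides in 300 bases, against 31 for Asf1a, 27 for Asf1b and a median of 7 over 32851 RefSeq windows. Npm3 (24), Nap1l1 (31), Set (17 and 36 at its 2 starts), Hira (31) and Chaf1a (32) were all above that median. H1f8 was thus the only gene of the 8 below the median, and it was near it. H1f8 had 2 CCAAT boxes and 1 E-box, Asf1a 1 of each, and Asf1b 4 CCAAT boxes and 0 E-boxes. A CCAAT box occurs in 37.4% of all windows and an E-box in 72.3%. The element TAATTN, which the oocyte factor NOBOX is known to bind, is in 27.0% of all windows and, of the 8 genes, in Nap1l1 alone. No matches of different motifs overlapped in the printed sequences. A match to letters is a description and not a binding site.

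In SN oocytes, Rnaseh1 against mCherry, none of the 10 genes passed the test, and neither did any other gene. That includes the overexpressed Rnaseh1, at 3.55 (SE 0.57, limma's adjusted p = 0.407). Under limma 0 of 12736 genes passed after adjustment, a background of 0%, and 859 (6.74%) had an unadjusted p under 0.05. The groups did not overlap for 8 of the 10 genes, against 50.7% of all genes. The median log2 fold change was -1.03 for the 10 genes and -0.22 for all. The SE was large, with a median over genes of 0.53, against 0.23 in the rescue set. Granulosa and cumulus markers summed to 61.8 to 63.6 TPM in SN Rnaseh1 libraries and 79.2 to 83.2 TPM in SN mCherry libraries. Most of these sums was Cyp19a1, at 29.48 and 30.05 against 40.7 and 46.13 TPM, and Cdh2, at 22.62 and 24.16 against 36.01 and 25.72 TPM. The part of these markers in the values was not tested.

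H1f8 had 1992 and 2093 TPM in SN Rnaseh1 oocytes, against 2704 and 9827 TPM in SN mCherry oocytes. Both Rnaseh1 values were lower, but the mCherry libraries lay far apart, and the fold change of -1.34 (SE 0.73) had an adjusted p of 0.61 under limma. Npm2 had 667 and 679 TPM with Rnaseh1, against 1131 and 2146 TPM with mCherry, at -1.21 (SE 0.68, limma's adjusted p = 0.61). Npm3 was low in all 4 libraries, 4.88 and 2.91 TPM with Rnaseh1 against 5.73 and 5.75 TPM with mCherry, at -0.49, which the GC correction turned to 0.08. Nap1l1 had 117 and 146 TPM with Rnaseh1, against 99.3 and 80.5 TPM with mCherry, at 0.55 (SE 0.37). Nap1l4 had 26.2 and 25.4 TPM with Rnaseh1, against 49.5 and 203 TPM with mCherry, at -1.92 (SE 1.16). In none of these 5 genes did the groups overlap, and in H1f8, Npm2 and Nap1l4 the mCherry libraries differed from each other by more than the Rnaseh1 libraries did.

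Set was the gene of the 10 that came closest to the threshold in SN oocytes. It had 26.5 and 33.9 TPM with Rnaseh1, against 15.4 and 7.40 TPM with mCherry, at 1.40 (SE 0.50, limma's unadjusted p = 0.0257, adjusted p = 0.61). The other 9 genes had an unadjusted p above 0.05. Asf1a had 3450 and 4211 TPM with Rnaseh1, against 3345 and 1199 TPM with mCherry, at 0.93 (SE 0.71). Asf1b had 109 and 165 TPM with Rnaseh1, against 209.7 and 392 TPM with mCherry, at -1.10 (SE 0.90). For both, the Rnaseh1 libraries lay on 1 side of the mCherry libraries, by a narrow margin for Asf1a. Hira had 2.57 and 0.28 TPM with Rnaseh1, against 1.58 and 5.70 TPM with mCherry, and Chaf1a had 6.62 and 12.1 TPM with Rnaseh1, against 11.2 and 49.9 TPM with mCherry. These last 2 overlapped, at -0.96 (SE 0.78) and -1.32 (SE 1.29). Without the 2 libraries that stood apart the values were smaller, among them -0.41 for H1f8, -0.75 for Npm2, -0.92 for Nap1l4, 0.92 for Set, 0.19 for Asf1a and -0.28 for Chaf1a, and 0 of the 10 passed, against 0.0407% of all genes.

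In NSN oocytes, Rnaseh1 against mCherry, limma likewise called 0 of 12736 genes, a background of 0%, and 353 genes (2.77%) had an unadjusted p under 0.05. The overexpressed Rnaseh1 stood at 1.76 (SE 0.57, limma's adjusted p = 0.755). The libraries of the groups overlapped for all 10 genes, where 32.9% of all genes did not overlap. The median log2 fold change was -0.85 for the 10 genes and -0.29 for all. In most of the 10 genes the 2 Rnaseh1 libraries lay much further from each other than the 2 mCherry libraries did.

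H1f8 had 4393 and 1345 TPM in NSN Rnaseh1 oocytes, against 5664 and 3947 TPM in NSN mCherry oocytes, at -0.96 (SE 0.73). Npm2 had 1589 and 352 TPM with Rnaseh1, against 1705 and 1502 TPM with mCherry, at -1.10 (SE 0.68). Nap1l4 had 112 and 6.93 TPM with Rnaseh1, against 108 and 99.0 TPM with mCherry, at -1.80 (SE 1.16). In these 3 genes the first Rnaseh1 library was close to the mCherry libraries and the second was far below them. Asf1b had 332 and 38.05 TPM with Rnaseh1, against 392 and 309 TPM with mCherry, at -1.61 (SE 0.90). Chaf1a had 26.3 and 0.48 TPM with Rnaseh1, against 30.1 and 21.8 TPM with mCherry, at -2.06 (SE 1.29). Asf1a went the other way in the second library, with 1384 and 5511 TPM with Rnaseh1 against 2207 and 2613 TPM with mCherry, at 0.20 (SE 0.71). Nap1l1, with 73.4 and 124 TPM against 85.7 and 90.9 TPM, did the same on a smaller scale.

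Set had 20.1 and 11.8 TPM with NSN Rnaseh1, against 13.4 and 22.6 TPM with NSN mCherry, at -0.16 (SE 0.50), a sign that the GC correction (0.05) and quantile normalization (0.18) turned. Npm3 had 12.03 and 2.25 TPM with Rnaseh1, against 4.45 and 6.75 TPM with mCherry, at 0.00 (SE 0.68). Hira had 3.01 and 0.48 TPM with Rnaseh1, against 2.04 and 4.52 TPM with mCherry, at -0.75 (SE 0.78). All of these adjusted p-values were 0.755 or higher under limma. Leaving out the first NSN Rnaseh1 library leaves the second alone in its group and assumes that it varies like the other groups. Without it 4 of the 10 genes passed, against 9.24% of all genes, a share that counts calls in either direction. All 4 were lower: Npm2 at -2.18, Nap1l4 at -3.72, Asf1b at -3.16 and Chaf1a at -4.17. Without the second NSN Rnaseh1 library and the second SN mCherry library the corresponding values were -0.01 for Npm2, 0.11 for Nap1l4, -0.07 for Asf1b and 0.04 for Chaf1a, and H1f8 stood at -0.11.

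Whether the Rnaseh1 effect differed between SN and NSN oocytes was tested as the difference of the fold changes. No gene passed (0% of 12736), and limma gave 288 genes (2.26%) an unadjusted p under 0.05. Set had the largest difference of the 10, 1.56 (SE 0.71, limma's unadjusted p = 0.0621, adjusted p = 1), and the other 9 lay between -0.49 and 0.75. With an SE of 0.52 to 1.82 for these genes, differences of this size were not detectable with 2 libraries a group. Without the 2 libraries that stood apart, 0 of the 10 genes passed, against 0.0163% of all genes.

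No gene passed between the nucleolar states with both libraries of each group in the fit, which does not show that the states were alike. SN against NSN oocytes with mCherry gave 0% called by limma, 328 genes (2.58%) at an unadjusted p under 0.05, and log2 fold changes from -0.65 for Set to 0.12 for H1f8. All 10 overlapped, where 27.5% of all genes did not. With Rnaseh1 the SN libraries against the NSN libraries gave 0% called, 584 genes (4.59%) at an unadjusted p under 0.05, and values from -0.44 for Npm3 to 0.91 for Set (SE 0.50, limma's adjusted p = 1). Set was the 1 gene of the 10 whose groups did not overlap there, against 26.6% of all genes. When the second NSN Rnaseh1 library and the second SN mCherry library were left out, 3 of the 10 genes passed in SN against NSN Rnaseh1 oocytes, against 2.75% of all genes: Npm2 at -1.24, Nap1l4 at -2.07 and Asf1a at 1.46, each with an adjusted p of 0.0452.

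The libraries of 1 group could lie far apart in these genes. In NSN Rnaseh1 oocytes, the second library minus the first was -4.21 for Chaf1a, -3.83 for Nap1l4, -3.09 for Asf1b, -2.17 for Npm2, -2.0 for Npm3 and -1.71 for H1f8 on the log2(TPM + 1) scale, and 1.99 for Asf1a. In SN mCherry oocytes it was 2.06 for Chaf1a, 2.01 for Nap1l4, 1.86 for H1f8, 0.90 for Asf1b and 0.92 for Npm2, and -1.48 for Asf1a and -0.97 for Set. Of the 8 genes that were lower in the second NSN Rnaseh1 library, 6 were higher in the second SN mCherry library, Npm3 differed by 0.00 there and Set was lower. The sign of the NSN Rnaseh1 replicate difference matched that of the rescue Rnaseh1 change over mCherry for 8 of the 10 genes, against 76.1% of 11911 genes in both tables. The sign of the SN mCherry replicate difference was opposite for 9 of the 10, where 20.1% of all genes had the same sign. These shares are near the background and are no result about the 10 genes. Across all genes the replicate difference had a Spearman correlation with GC content of -0.41 in NSN Rnaseh1 and 0.40 in SN mCherry oocytes. Rnaseh1 itself was at 745 TPM in the first NSN Rnaseh1 library and 229 TPM in the second. Granulosa and cumulus markers summed to 35.5 to 69.9 TPM in the NSN Rnaseh1 libraries, against 82.0 to 87.0 TPM in the NSN mCherry libraries. Most of this was Cyp19a1, at 35.78 and 12.98 against 44.0 and 36.45 TPM, and Cdh2, at 26.63 and 10.64 against 31.51 and 34.27 TPM. The part of GC content, of the Rnaseh1 level or of these markers in the replicate difference was not tested.

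**Figure D4:**
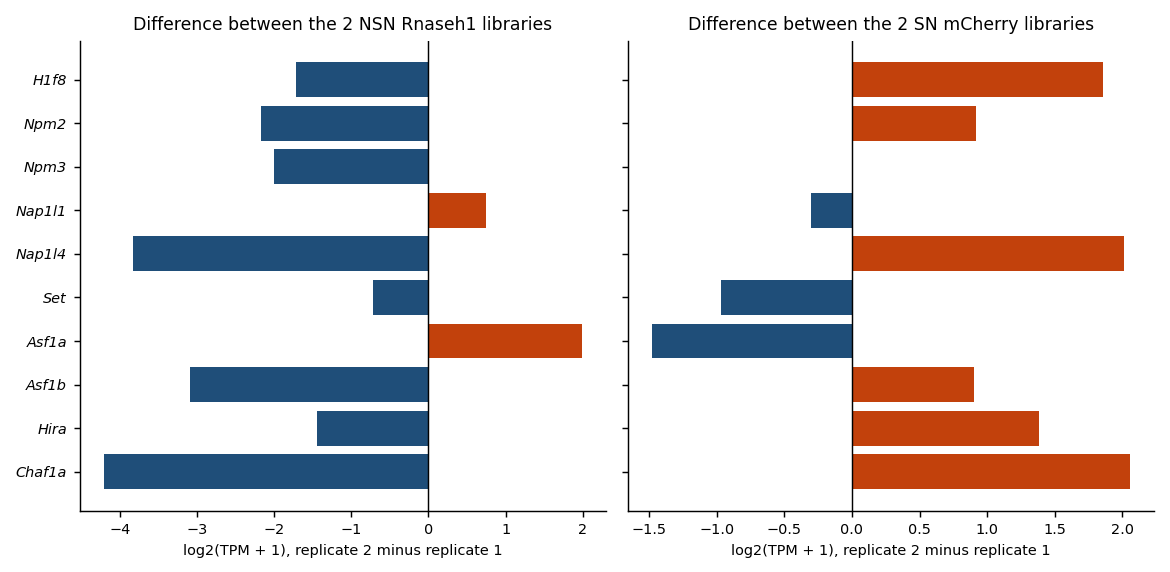
Replicate 2 minus replicate 1 for each of the 10 genes, on the log2(TPM + 1) scale, for NSN Rnaseh1 oocytes on the left and SN mCherry oocytes on the right. Orange bars are positive and blue bars negative. Chaf1a stood at -4.21 on the left and 2.06 on the right, and Asf1a at 1.99 and -1.48.

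Centred on the mean of each table, 8 of the 10 genes fell into 2 blocks over the 14 libraries. Hira was left out because its mean TPM was under 5, and Npm3 lay in neither block. Pearson's r, a description over 14 libraries that share groups and base composition effects, lay between 0.91 and 0.99 among H1f8, Npm2, Nap1l4, Asf1b and Chaf1a, and between 0.82 and 0.88 among Asf1a, Nap1l1 and Set. Between the blocks it was negative, from -0.91 to -0.59. For Npm3, r ran from -0.51 to 0.58. Among 7417 genes compared, those most like H1f8 were Ints9, Utp4 and Lrrc17, and those most like Npm2 were Bpgm, Grm4 and Nap1l4, all at an r of 0.99. For Npm3 they were H2bu2 and Lamtor4 (0.89 each) and H2-Oa (0.86).

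**Figure D5:**
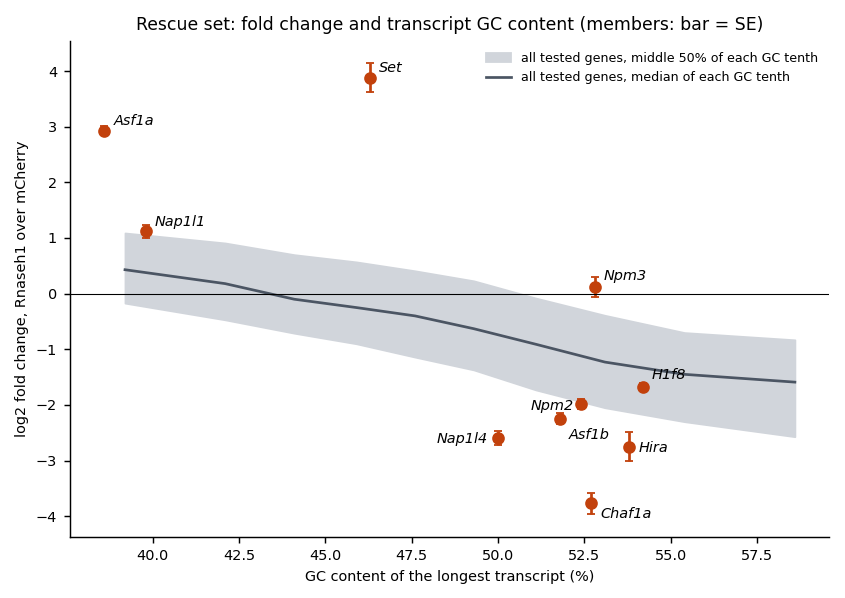
Log2 fold change of rescue Rnaseh1 over mCherry against the GC content of each gene's longest transcript. The line and the band are the median and the middle 50% of all tested genes in 10 bins of GC content, and the 10 genes are points with SE bars. Asf1a at 2.93, Set at 3.88 and Npm3 at 0.12 lay above the band, and Nap1l1 at 1.12 lay at its upper edge. H1f8 at -1.67 lay within the band and Npm2 at -1.99 at its lower edge. Chaf1a at -3.77, Hira at -2.75, Nap1l4 at -2.59 and Asf1b at -2.25 lay below the band.

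Other chaperones and histones from fixed lists gave the setting of these changes in the rescue set. The list names are broad, and which histones each protein binds was not checked. Of 20 genes listed as other H3-H4 chaperones, Rnaseh1 against mCherry gave 3 that rose and 11 that fell. Their median was -0.65 beside -0.52 for all genes. Of all genes 20.3% rose and 46.2% fell. After the GC correction 2 of the 3 rises and 6 of the 11 falls kept the call; it was lost by Nasp, at 0.17, and by Rbbp4, Cabin1, Daxx, Ipo4 and Sart3, at -0.31, -0.52, -0.04, 0.28 and 0.01. Mcm2, a helicase subunit that binds parental H3-H4, fell by 3.21 (-2.21 after the GC correction). Hjurp, the chaperone of the centromeric variant CENP-A, fell by 2.71 (-1.97 corrected), and Atrx, which works with DAXX in H3.3 placement, fell by 1.58 (-1.98 corrected). Hat1, which acetylates new H4, rose by 2.0 (1.98 corrected). With Rnaseh1 plus Supt6 against mCherry, 1 rose and 7 fell, where 5.71% of all genes rose and 7.60% fell, with Atrx at -1.10, Cabin1 at -1.09, Sart3 at -0.97 and Hjurp at -0.90. The GC correction ended the calls of Rbbp7, Cabin1 (-0.74, adjusted p = 0.0718 under limma) and Daxx. Against Rnaseh1 alone, 10 rose and 3 fell, where 41.6% of all genes rose and 17.4% fell, among them Mcm2 at 2.43, Hjurp at 1.81, Dnajc9 at 0.85 and Hat1 at -1.45. Of the 10 rises 6 kept the call after the GC correction. Ubn1 lost it at 0.78, Cabin1 turned to -0.22 and Daxx to -0.60, both short of the threshold, and Sart3 turned from a rise of 0.55 to -0.64 (limma's adjusted p = 0.0104).

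Of 15 genes listed as other H2A-H2B chaperones, 12 were tested. With Rnaseh1 against mCherry 5 rose and 4 fell, where 20.3% of all genes rose and 46.2% fell. Their median was 0.24 beside -0.52 for all genes. The GC correction ended 1 of these calls, the fall of Ptma. Vps72, a subunit of the complex that places H2A.Z, fell by 5.22 (-5.16 after the GC correction), a larger fold change than that of any of the 10 genes. Tspyl1, a distant relative of the NAP1 family, rose by 2.38 (2.64 corrected), its relative Tspyl2 fell by 2.16 (-0.93 corrected), and Anp32b rose by 1.06 (2.08 corrected). Rnaseh1 plus Supt6 against mCherry gave 0 that rose and 2 that fell, Vps72 at -0.79 and Ptma at -0.67. Against Rnaseh1 alone 3 rose and 7 fell, and 2 of the 3 rises, those of Tspyl2 and Ipo9, were lost after the GC correction, with Vps72 at 4.43, Tspyl1 at -2.36, Anp32b at -0.99 and Npm1, the nucleolar relative of Npm2 and Npm3, at -0.84.

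Only 3 of 10 other linker histone genes passed the filter, and all 3 fell with Rnaseh1 against mCherry: H1f1 stood at -1.09, H1f2 at -1.02 and H1f0 at -0.76, where 46.2% of all genes fell. None of the 3 was past the threshold after the GC correction, at 0.30, 0.43 and 0.29, and H1f8, at -0.32, was. H1f1 was weakly expressed, at 2.51 and 1.31 TPM with Rnaseh1 against 5.52 and 4.63 TPM with mCherry. H1f2 was lower still, at 0.66 and 0.64 against 2.74 and 2.0 TPM. A difference between these genes and the far more abundant H1f8 was not tested. With Rnaseh1 plus Supt6 none of the 3 passed against mCherry, and H1f0 rose by 0.90 against Rnaseh1 alone, or 0.03 after the GC correction (limma's adjusted p = 0.934). Of 9 histone variant genes, 3 rose and 4 fell with Rnaseh1 against mCherry, near the 66.5% of all genes called. H2ax fell by 4.19 (-2.57 corrected). H3f3b rose by 1.85 (1.76 corrected) and H3f3a fell by 0.61 (-0.72 corrected), a pair encoding the same H3.3 protein that HIRA places. H2az2 rose by 0.74 (1.02 corrected), and the fall of Macroh2a2 was lost after the correction, at 0.10. Rnaseh1 plus Supt6 against mCherry gave H3f3b at 0.88, H3f3a at -0.45 and H2ax at -0.68 as the 3 calls, of which that of H2ax was lost after the GC correction (-0.32). Against Rnaseh1 alone H2ax rose by 3.51 and Cenpa by 0.73, the second lost after the correction (0.25), while H3f3b fell by 0.97 and H2az2 fell by 0.45. In the SN and NSN table limma called 0 genes of every list in all 5 comparisons.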

How the data were processed

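The libraries came from polyadenylated oocyte RNA. Per the labels' protocols, SuperScript II made the cDNA, KAPA HiFi amplified it, and the library kit was Vazyme TD503. The authors deposited TPM values per gene, 1 column per library, in 2 tables. Per the submitters' processing notes, the build was mm10 and the tools named, with no roles, were RSEM 1.3.3, STAR 2.7.0d, Trim Galore 0.6.7 and DESeq2. The reads behind a TPM value are unknown, so no counting error is given.

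The tables were fitted apart with limma 3.58.1 in R 4.3.3 (trend eBayes, 1 mean per group, 1 spread over the groups of a table), after keeping genes that reached 1 TPM in 2 or more libraries. Tests were two-sided, and calls needed a Benjamini-Hochberg adjusted p under 0.05 over all genes. GENCODE M21 (GRCm38) gave coordinates, transcript GC content and overlapping genes. The GC correction removed from each library a spline on transcript GC content with 4 degrees of freedom. Near copies were sought with blastn 2.17.0. The fit was run on simulated data with independent noise of equal spread in every gene and library of a table. That run does not show how the fit behaves where libraries differ in spread, as they did here. All 10 genes are named whatever their values, with up to 4 genes of the smallest p from each further list. The genes, lists and tests were chosen with earlier results of these data known. Alternatives were an added value of 0.1 or 5 before the log, another or no low-value filter (5 TPM), centring on medians, quantile normalization, the GC correction, a replicate block and leaving out libraries.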

Additional observations from a re-analysis of the deposited data

How the results depend on the processing

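With 2 libraries a group and no read depth, small differences could not be resolved in the SN and NSN table. Counts of members called were 9 to 10 in all alternatives run for rescue Rnaseh1 over mCherry and for Rnaseh1 plus Supt6 over Rnaseh1, and 0 in all run for SN Rnaseh1 over SN mCherry. Over all results and alternatives, 1237 values kept direction and call, 19 lost the call, 15 gained it and 84 changed sign. Fits without both libraries that stood apart, and the crossed block, were chosen after seeing the data. No cause of a change below was tested.

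The labels do not say whether the replicate numbers pair the libraries. Deviations of same-numbered libraries of different groups correlated across genes at -0.51 to 0.17 in the SN and NSN table and at 0.00 to 0.04 in size in the rescue set. With 2 libraries a group, these correlations cannot show whether same-numbered libraries shared an animal or a preparation. The replicate block changed no count of members called (9, 6 and 9 in the rescue set for Rnaseh1 over mCherry, Rnaseh1 plus Supt6 over mCherry and Rnaseh1 plus Supt6 over Rnaseh1, 0 elsewhere, crossed numbers included). With the GC correction it gave 10, 7 and 9. The signs that turned with the GC correction did so with the block too, at the same values: Npm3 0.08 in SN Rnaseh1 over mCherry, Set 0.05 in NSN Rnaseh1 over mCherry, Npm3 -0.01 and Hira -0.06 in SN over NSN mCherry, Nap1l1 -0.09 in Rnaseh1 plus Supt6 over mCherry and Npm3 -0.51 in Rnaseh1 plus Supt6 over Rnaseh1. Median centring gave Set 0.16 in NSN Rnaseh1 over mCherry and Npm3 -0.07 in Rnaseh1 plus Supt6 over Rnaseh1. Quantile normalization gave Set 0.18 and Npm3 -0.16 there, and Nap1l1 -0.01 and Nap1l4 0.02 in SN over NSN mCherry. A pseudocount of 0.1 gave Npm3 -0.06 in NSN Rnaseh1 over mCherry and Hira -0.01 in SN over NSN mCherry.

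Without both libraries that stood apart, 3 members passed in SN over NSN Rnaseh1, with Asf1b -1.31 and Chaf1a -1.45. NSN Rnaseh1 over mCherry then had Nap1l1 -0.26, Nap1l4 0.11, Set 0.20, Asf1a -0.79 and Chaf1a 0.04. The SN and NSN difference had Asf1b -0.58 and Chaf1a -0.32, and SN over NSN mCherry had H1f8 -0.81, Asf1a 0.48 and Hira -0.67.

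Leaving out 1 library at a time gave 1 to 6 members called in Rnaseh1 plus Supt6 over mCherry, 0 to 4 in NSN Rnaseh1 over mCherry. Values whose sign turned ranged, in NSN Rnaseh1 over mCherry, from -1.0 to 1.0 (Npm3), -0.26 to 0.49 (Nap1l1), -3.72 to 0.11 (Nap1l4), -0.52 to 0.20 (Set), -0.79 to 1.2 (Asf1a) and -4.17 to 0.04 (Chaf1a). In the SN and NSN difference they ranged from -1.31 to 0.55 (H1f8), -1.2 to 0.97 (Npm2), -1.49 to 0.51 (Npm3), -2.03 to 1.80 (Nap1l4), -0.27 to 1.72 (Asf1a), -1.03 to 2.06 (Asf1b), -0.95 to 0.53 (Hira) and -1.35 to 2.85 (Chaf1a). In SN over NSN mCherry they were -0.81 to 1.06 (H1f8), -0.50 to 0.42 (Npm2), -0.20 to 0.31 (Npm3), -0.13 to 0.17 (Nap1l1), -1.05 to 0.97 (Nap1l4), -1.0 to 0.48 (Asf1a), -0.73 to 0.17 (Asf1b), -0.67 to 0.71 (Hira) and -1.13 to 0.94 (Chaf1a). In SN over NSN Rnaseh1 they were -1.11 to 0.60 (H1f8), -1.24 to 0.93 (Npm2), -1.44 to 0.56 (Npm3), -2.07 to 1.76 (Nap1l4), -0.53 to 1.46 (Asf1a), -1.31 to 1.79 (Asf1b), -0.93 to 0.55 (Hira) and -1.45 to 2.76 (Chaf1a). In the rescue set they were -0.05 to 0.29 for Npm3 in Rnaseh1 over mCherry and -0.12 to 0.15 for Nap1l1 in Rnaseh1 plus Supt6 over mCherry.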
